A study of Mus musculus with 8 samples.

Results

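Regions of the mouse genome with called peaks of Oct4 and of Nr5a2, and with no called peak of Nanog or Sox2, are described here. They were chosen by the presence of peaks in 8 peak lists, all from mouse embryonic fibroblasts (MEFs) on day 3 of reprogramming. Each list comes from CUT&Tag, in which an antibody carries a transposase to chromatin so that DNA near the bound protein is cut, tagged and sequenced. The antibody recognised the Flag tag of 1 delivered factor, which was Nanog, Oct4, Sox2 or Nr5a2, either native or fused at its N-terminus to BiD, a short stretch of SS18 that binds BRG1. Peaks of all lists that shared 1 bp or more were merged into 306466 union regions, and 5938 of them met the rule. Per the study's methods, the cells came from embryos of an Oct4-GFP reporter cross, received the factors by pMXs retrovirus and were kept in a reprogramming medium from day 0. The sample labels name only the tagged factor, so other factors delivered to the same cells are not given in the sources used here. Each factor and form is 1 library, so there is no replicate and no test below. Intervals in brackets are exact (Clopper-Pearson) 95% intervals that cover counting error over regions only.

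Oct4 (gene Pou5f1) is a POU-domain transcription factor that binds an octamer sequence and is needed to keep pluripotent cells undifferentiated. Nr5a2, also called LRH-1, is an orphan nuclear receptor that binds DNA mostly as a monomer, regulates bile acid and steroid genes in liver, gut and ovary, and is known from earlier work as a factor that can stand in for Oct4 in reprogramming. BRG1, encoded by Smarca4, is the ATPase of the BAF complex, which moves nucleosomes, so the BiD fusions link each factor to a remodeller.

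Both strands were searched for the motif of each factor, up to 50 bp from the summit, which is the highest point of a peak. The octamer was ATGCAAAT, and the NR5A motif was TCAAGGTCA, TCAAGGCCA, CCAAGGTCA or CCAAGGCCA. Both were present in 78 members, the octamer at an Oct4 summit and the NR5A motif at an Nr5a2 summit. The 6 stretches printed here are shown because they let both motifs be read in 1 piece of DNA. For each member the lowest of its libraries' score percentiles was taken, and these 6 had the highest such value among 23 members outside exons whose motifs fit in 300 bases (some members were left out of the choice by chromosome). The letters are from the RefSeq copy of GRCm38, the assembly behind mm10, on the plus strand from 5′ to 3′, with the octamer and the NR5A motif in capitals and 20 bases to either side.
Trim58 intron, chr11:58643505-58643691: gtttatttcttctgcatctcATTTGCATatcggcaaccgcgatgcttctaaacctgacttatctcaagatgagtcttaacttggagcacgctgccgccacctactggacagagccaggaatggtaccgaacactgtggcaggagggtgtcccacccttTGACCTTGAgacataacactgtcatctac
Gabrb2 intron, chr11:42523806-42523889: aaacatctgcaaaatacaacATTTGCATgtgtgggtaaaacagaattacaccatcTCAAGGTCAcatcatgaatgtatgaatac
Intergenic, nearest start site Gm37737, chr1:59438889-59439150: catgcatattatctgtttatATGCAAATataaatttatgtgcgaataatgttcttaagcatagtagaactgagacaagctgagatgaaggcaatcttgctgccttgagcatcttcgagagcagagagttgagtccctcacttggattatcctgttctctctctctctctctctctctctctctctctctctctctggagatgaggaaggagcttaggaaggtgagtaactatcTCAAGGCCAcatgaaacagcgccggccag
Rreb1 intron, chr13:37923660-37923847: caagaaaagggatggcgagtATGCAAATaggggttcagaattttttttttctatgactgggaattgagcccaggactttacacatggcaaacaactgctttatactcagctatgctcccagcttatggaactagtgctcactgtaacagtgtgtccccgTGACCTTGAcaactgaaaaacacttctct
Intergenic, nearest start site Cdk15, chr1:59247850-59247992: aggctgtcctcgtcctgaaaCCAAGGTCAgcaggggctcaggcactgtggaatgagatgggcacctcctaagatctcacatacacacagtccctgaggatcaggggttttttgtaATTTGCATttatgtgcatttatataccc
Tnfrsf8 intron, chr4:145305739-145305802: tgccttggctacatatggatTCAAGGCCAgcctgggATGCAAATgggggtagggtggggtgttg

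In these stretches the motif centres lay 138, 35, 213, 139, 95 and 16 bp apart, in the order shown. The strands and the order of the motifs differed from stretch to stretch. At the Tnfrsf8 intron, the closest pair of motifs of all 78 members, all 4 Oct4 and Nr5a2 libraries had a peak, and the closest Oct4 and Nr5a2 summits were 3 bp apart. Summit heights there were 21 tags in native Oct4, 26 in Oct4BiD, 62 in native Nr5a2 and 32 in Nr5a2BiD. The native Nr5a2 summit was the highest of the 4, and heights are not scaled to depth. At the Trim58 intron only Oct4BiD and native Nr5a2 had a peak, each with a summit of 22 tags, and these summits were 190 bp apart. The Gabrb2 stretch had peaks of Oct4BiD (18 tags), native Nr5a2 (42 tags) and Nr5a2BiD (31 tags), with summits of the 2 factors 6 bp apart.

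Over the 78 members with both motifs, the closest motif centres were a median of 420 bp apart (quartiles 195 and 695, range 16 to 2739). Only 5 pairs lay within 50 bp and 11 within 100 bp, whereas 48 were more than 300 bp apart. Few spacings recurred, since the 78 pairs had 76 different distances, and the most frequent was seen 2 times. The motifs were on the same strand in 41 of the 78. The octamer was present in 10.2% (8.18 to 12.6) of the 762 members with an NR5A motif and in 10.4% (9.59 to 11.3) of the 5176 members without one. Both motifs together were found in 1.31% (1.04 to 1.64) of the members, against 0.655% of all 26556 regions with Oct4 and Nr5a2 peaks whatever the other factors. That set includes the members. The share of each motif alone was not computed for it, and its part in the contrast was not tested. The members' share with both motifs was 0.742% (0.447 to 1.157) without the Oct4BiD library. It was 0.613% (0.357 to 0.979) with windows of 50 bp around summits merged in place of peaks. The background was not computed under these settings, so the contrast cannot be read for them.

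The rule compared 4 factors, which form 6 pairs. The pair of Oct4 and Nr5a2 had the fewest regions that belong to 2 factors only, with 5938, and the other pairs had from 7703 for Nanog and Nr5a2 to 14388 for Nanog and Sox2. It stayed the pair with the fewest regions when lists were limited to scores of at least 100, to 50000 peaks each or to windows around summits, with 3293, 3208 and 2775 members against 4561, 3288 and 4410 regions of the next pair. The members made up 5.56% of the 106763 regions with an Oct4 peak, 5.11% of the 116274 with an Nr5a2 peak and 22.4% of the 26556 with both. The rest of the last set, 20618 regions, also had a Nanog or Sox2 peak. The rule sits on a threshold, since the lowest score called was 50 in each list. In 1367 members the better peak of the weaker factor scored under 60, and the median of that score was 81.0. Just outside, 571 regions were left out by a single Nanog or Sox2 library with a score under 60, and 427 Oct4-only regions lay within 100 bp of an Nr5a2-only region. A Nanog or Sox2 peak lay within 1 kb of 1290 members (21.7%).

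Members drew unequally on the forms. Native Oct4 had a peak in 2662 members, Oct4BiD in 5258, native Nr5a2 in 5265 and Nr5a2BiD in 3933. For Oct4, 680 members had only the native form, 3276 only the BiD form and 1982 both, a log2 ratio of BiD-only to native-only members of 2.27 (2.15 to 2.39). For Nr5a2 the order was the opposite, with 2005 native-only, 673 BiD-only and 3260 members of both forms, a log2 ratio of -1.57 (-1.70 to -1.45). Over all regions of each factor the ratio was 1.88 for Oct4 and -2.01 for Nr5a2, so the opposite directions were not particular to members. List length moved with these ratios, since Oct4BiD had 93978 peaks against 54794 of native Oct4, and Nr5a2BiD had 76217 against 108030 of native Nr5a2. With 50000 peaks taken from each list, the ratio was 0.33 for Oct4 and 0.31 for Nr5a2, so the direction for Nr5a2 turned. With windows around summits in place of peaks, where list lengths stayed unequal, the Nr5a2 ratio was 0.11. Its interval there (-0.034 to 0.262) held both signs.

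The most frequent of the 9 combinations was Oct4BiD with both forms of Nr5a2, in 1790 members, and the least frequent was native Oct4 with Nr5a2BiD, in 95. Only native forms were present in 208 members and only BiD forms in 329. All 4 libraries had a peak in 1093 members (18.4%).

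**Figure D1:**
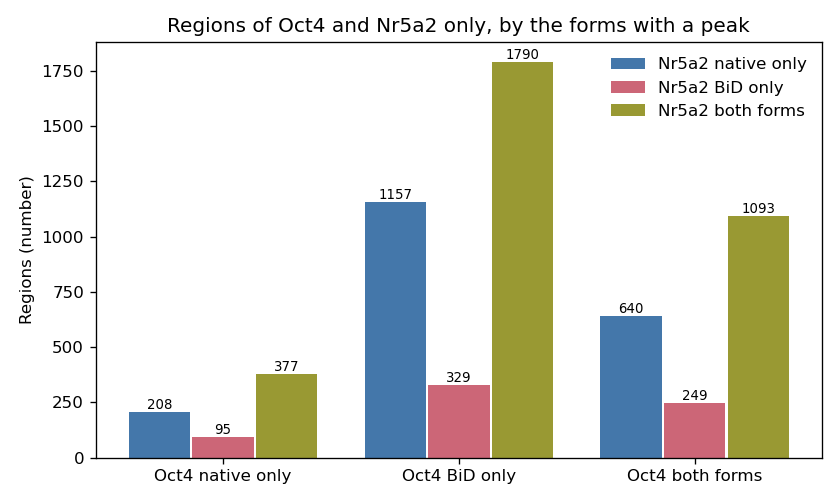
Number of regions (vertical axis) for each combination of Oct4 forms (groups on the horizontal axis) and Nr5a2 forms (colours) with a peak. Combinations with Oct4BiD hold most regions, led by 1790 with Oct4BiD only and both Nr5a2 forms, and 208 regions had native forms only.

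Within their libraries the members' peaks lay near the middle of the score range, and since these peaks chose the members, their scores are a description. The median score was 105 in native Oct4, 128 in Oct4BiD, 124 in native Nr5a2 and 109 in Nr5a2BiD, where the score is 10 times the negative log10 of the caller's p-value. The median percentile of the members' peaks among all peaks of the same list lay between 46.6 in Nr5a2BiD and 49.6 in native Nr5a2. Regions of all 4 factors had higher medians, from 57.9 in native Oct4 to 73.0 in native Nr5a2. Regions of 1 factor only had lower ones, from 42.2 to 43.95. In each library, regions of its factor with only Nanog or only Sox2 had medians above that of members. These ran from 49.7 in Nr5a2BiD, with Sox2, to 54.5 in native Nr5a2, with Nanog. Scores of Oct4 and Nr5a2 peaks in the same member showed little relation. Across the 2318 members with native Oct4 and native Nr5a2 peaks, Spearman's rho of the within-library percentiles was -0.020, and across the 3461 with both BiD forms it was -0.0020. The 2 forms of the same factor moved together, with rho of 0.41 for Oct4 (1982 members) and 0.63 for Nr5a2 (3260 members). These are descriptions across regions that share 2 libraries each, and the other 5 pairs of factors, native with native or BiD with BiD, had values from -0.0034 to 0.116.

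Each factor's own motif was found at its own summits. An octamer lay at an Oct4 summit of 617 members, or 10.4% (9.63 to 11.2), beside a background of 9.29% over all regions with an Oct4 peak. An NR5A motif lay at an Nr5a2 summit of 762 members, or 12.8% (11.99 to 13.7), beside 12% over all regions with an Nr5a2 peak. Both shares are close to their backgrounds, and 4637 members (78.1%) had neither motif at a summit. Without the Oct4BiD library the octamer share was 5.23%. The region background was not computed for that setting, but 4.17% of all native Oct4 peaks had an octamer, against 5.54% of those in members. With windows of 50 bp around summits merged in place of peaks the NR5A share was 6.88%, beside 10.8% over all such windows with Nr5a2. The octamer share there was 7.57%, below the 8.41% over all such windows with Oct4. Against windows of the same size 500 bp to either side, the octamer was 6.93 times as frequent at native Oct4 summits of members and 14.4 times at Oct4BiD summits. The NR5A motif was 9.62 times as frequent at native Nr5a2 summits and 6.14 times at Nr5a2BiD summits. Over all peaks of the same libraries the values were 6.15 and 15.4 for the octamer and 9.43 and 6.56 for NR5A, close to those of members. The 4 spellings of the NR5A motif were used about as in Nr5a2-only regions. TCAAGGTCA was present in 29.9% of the 762 members with a motif and CCAAGGCCA in 21.5%, against 29.5% and 21.0% in Nr5a2-only regions.

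The form of the factor went with the motif. Of the 680 members with native Oct4 only, 8 had an octamer at an Oct4 summit, or 1.18% (0.509 to 2.30). With Oct4BiD only the share was 11.5% (10.4 to 12.7), and with both forms 11.7% (10.3 to 13.2). The interval of native-only members lay below both others. Oct4-only regions also had their lowest share with the native form only, with 2.13% for native only, 13.8% for BiD only and 10.7% for both. For Nr5a2 the members with Nr5a2BiD only had the motif least often, at 6.98% (5.18 to 9.18), against 12.6% (11.1 to 14.1) with native Nr5a2 only and 14.2% (13.02 to 15.4) with both. Nr5a2-only regions had 8.89% for BiD only, below 14.0% for native only and 14.9% for both. The octamer was also more frequent where the Nr5a2 peak was of the BiD form only, at 14.3% (11.7 to 17.1), than where it was native only, at 8.88% (7.67 to 10.2). Members with native Oct4 only had an NR5A motif in 12.8% (10.4 to 15.5).

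**Figure D2:**
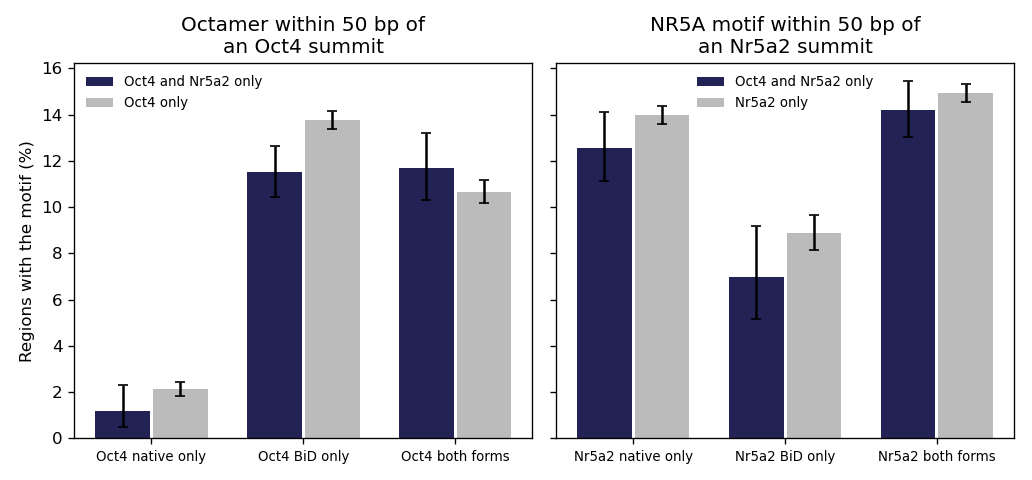
Share of regions (%) with an octamer within 50 bp of an Oct4 summit (left) and with an NR5A motif within 50 bp of an Nr5a2 summit (right), by form, in members (dark) and in regions of the single factor (grey), with exact 95% intervals. The octamer is at 1.18% in members with native Oct4 only and above 11% in the others, and the NR5A motif is lowest, at 6.98%, with Nr5a2BiD only.

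Oct4 peaks of members with an octamer stood higher in their lists than those without. The median percentile was 63.5 for 578 Oct4BiD peaks with the octamer and 46.2 for 4722 without it, and in native Oct4 it was 56.5 (149 peaks) and 49.1 (2540 peaks). This was not particular to members, since Oct4-only regions had 52.2 and 42.7 in Oct4BiD and 52.2 and 43.6 in native Oct4. For Nr5a2 the motif went with little difference, with medians of 47.6 and 49.8 in native Nr5a2 and of 49.7 and 46.2 in Nr5a2BiD.

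Motifs of other families were searched in the same windows. AP-1, whose FOS and JUN members are active in fibroblasts, binds TGACTCA, and its motif lay at an Oct4 or Nr5a2 summit of 519 members, or 8.74% (8.03 to 9.49). The background was 10% over all union regions and all their summits. At native Nr5a2 summits the AP-1 share was 4.70% in members, against 8.39% in regions of Sox2 and Nr5a2 and 8.998% in regions of Nanog and Nr5a2, but close to 5.16% in Nr5a2-only regions. At Oct4BiD summits it was 2.89% in members, against 4.45% in regions of Oct4 and Sox2 and 4.80% in regions of Nanog and Oct4, and it was 2.49% in Oct4-only regions. The TEAD motif (CATTCCA or CATTCCT) was at 6.77% of native Oct4 and 5.26% of native Nr5a2 summits of members, and the RUNX motif (AACCACA) at 3.24% and 2.08%. Over all peaks of these libraries the shares were close, at 7.44% and 5.43% for TEAD and 3.58% and 2.27% for RUNX. The SOX motif (CCATTGTT) was at 0.175% to 0.264% of the members' summits and the NANOG motif (GCCATTA) at 0.748% to 1%, and members had no Sox2 or Nanog peak by rule. The CTCF motif was at 0.223% to 0.625%. Over all peaks of the same 4 libraries the ranges were 0.265% to 0.288% for SOX, 0.732% to 0.978% for NANOG and 0.179% to 0.411% for CTCF.

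The summits of the 2 factors lay apart. The closest Oct4 and Nr5a2 summits of a member were a median of 296 bp from each other (quartiles 101 and 565.75), the widest of the 6 pairs. The next were Sox2 and Nr5a2 at 211 bp and Oct4 and Sox2 at 200 bp, and Nanog and Sox2 were closest at 64 bp. Summits within 100 bp were seen in 24.9% (23.8 to 26.04) of members and in 33.5% to 61.2% of the regions of the other pairs. Members were also the widest regions, with a median of 1303 bp against 1154 to 1229 bp. Among regions of 1000 to 1500 bp the medians were 320 bp for the 2243 members and 68 to 243.5 bp for the other pairs, so the order held at like width. With summit windows, where distances are limited by construction, members had a median of 34 bp and the next pair 32 bp. With 1 library of each factor, native Oct4 and native Nr5a2 summits were 415.5 bp apart (2318 members), and Oct4BiD and Nr5a2BiD summits 304 bp (3461 members). By contrast, summits of native Oct4 and Oct4BiD lay 40 bp apart where both had a peak, and summits of native Nr5a2 and Nr5a2BiD 35 bp.

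**Figure D3:**
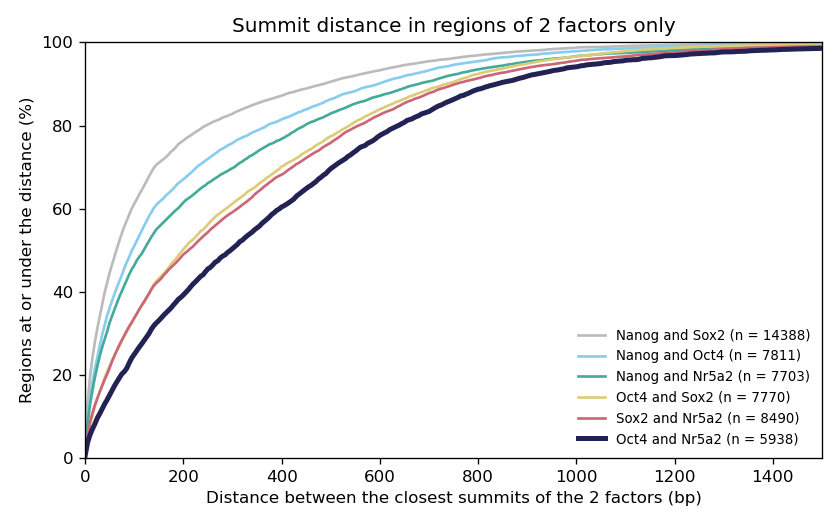
Cumulative share of regions (%) against the distance in bp between the closest summits of the 2 factors, for the 6 kinds of regions with peaks of 2 factors only. The curve of Oct4 and Nr5a2 (thick) is the lowest, with 24.9% of regions at 100 bp or less and a median of 296 bp.

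Shares of motifs were then compared over this distance. At Oct4 summits the octamer share was 10.3% (8.41 to 12.5) in the 901 members with summits up to 50 bp apart and 10.5% (8.93 to 12.3) in the 1329 members over 600 bp apart. At Nr5a2 summits the octamer share fell from 7.55% (5.91 to 9.47) to 0.376% (0.122 to 0.876) over the same span. The windows of the 2 summits overlap where these are within 100 bp. The NR5A motif at Oct4 summits likewise went from 5.55% (4.15 to 7.25) to 0.376%. At Nr5a2 summits the NR5A share was 9.77% (7.91 to 11.9) at up to 50 bp and 16.0% (14.0 to 18.03) at over 600 bp. NR5A motifs were thus more frequent where the Nr5a2 summit stood far from Oct4. The Nr5a2 form moved with this distance, with a median of 144 bp for Nr5a2BiD only (NR5A share 6.98%) and 362 bp for native Nr5a2 only (12.6%). The part of the form in the trend was not tested. Of the 901 members with the closest summits, 93 had an octamer, 88 an NR5A motif and 6 both.

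**Figure D4:**
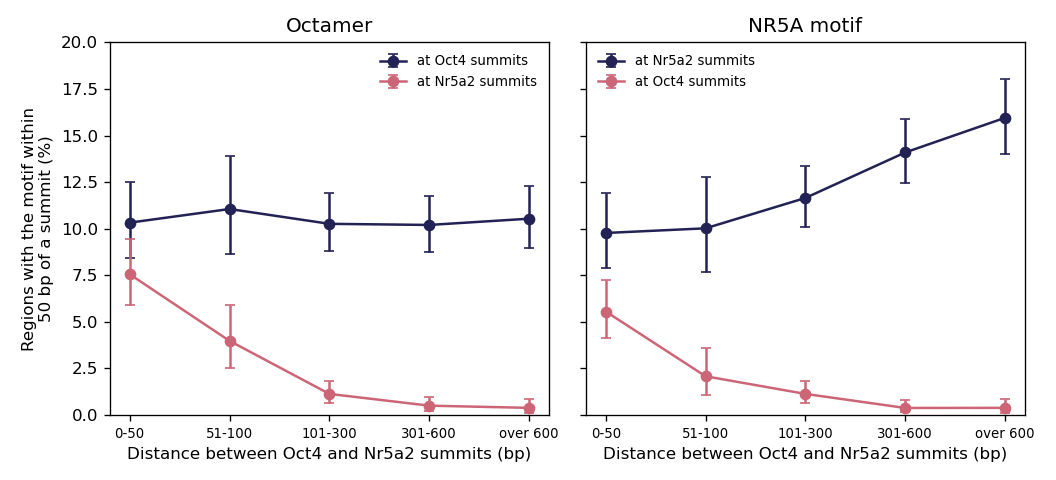
Share of members (%) with an octamer (left) or an NR5A motif (right) within 50 bp of Oct4 or Nr5a2 summits, by the distance in bp between the closest summits of the 2 factors, with exact 95% intervals. The octamer at Oct4 summits stays near 10%, the NR5A motif at Nr5a2 summits rises from 9.77% to 16.0%, and each motif at the other factor's summits drops to 0.376%.

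Over the whole length of a member, an octamer was present in 21.6% (20.6 to 22.7) and an NR5A motif in 29.6% (28.4 to 30.8) of the 5935 members on placed chromosomes. Per 100 kb there were 18.3 octamers and 25.5 NR5A motifs. Oct4-only regions had 32.4 octamers and 7.25 NR5A motifs per 100 kb, and Nr5a2-only regions 4.15 and 41.3. The densities of members lay between those of the single-factor regions, which were narrower (medians of 738 and 757 bp against 1303 bp). Per region, 22.4% of Oct4-only regions had an octamer and 29.5% of Nr5a2-only regions an NR5A motif, close to the shares of members. Regions of Oct4 and Sox2 had 20.8 octamers per 100 kb, and regions of Sox2 and Nr5a2 had 25.7 NR5A motifs.

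The position of a member was taken from the summit of its highest-scoring peak. Promoters (within 2 kb of a transcription start site) held 1031 members, or 17.4% (16.4 to 18.4), beside 14.7% of all union regions. With summit windows in place of peaks the promoter share was 33.7%, beside 16.9% of all such regions. Introns held 45.5%, intergenic sequence 33.5% and exons outside promoters 3.57%, beside 43.1%, 39.3% and 2.93% of all union regions. The promoter share of members was above that of Oct4-only regions (10.2%) and of regions of Oct4 and Sox2 (10.6%). It was nearer to that of Nr5a2-only regions (15.5%) and of Sox2 and Nr5a2 (14.7%), and close to that of Nanog and Nr5a2 (17.6%). Among members it was 20.9% (19.5 to 22.3) with Oct4BiD only, 13.8% (11.3 to 16.6) with native Oct4 only and 12.8% (11.3 to 14.3) with both Oct4 forms. Median GC content around the summit was 46.5%, between 38.6% in Oct4-only and 49.5% in Nr5a2-only regions. The summit lay in masked repeat sequence in 16.7% (15.8 to 17.7) of members, against 24.3% of Oct4-only and 15.2% of Nr5a2-only regions. The share of union regions that were members ranged over the autosomes from 1.62% on chromosome 18 to 2.35% on chromosome 7, and was 1.13% on chromosome X.

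The 10 leading members with peaks of all 4 libraries had no common kind of neighbour. The nearest start sites were those of Gm6781, Gm13536, Psd3, Dym, Gm27782, Gm19880, Shisa6, Trim32, Nmur1 and Mroh5, at 0.31 to 113 kb. The leading one, chr14:18529725-18531752, lay 0.31 kb from the pseudogene Gm6781 and had both motifs, with summits of the 2 factors 758 bp apart. Its scores were 555 in native Oct4, 982 in Oct4BiD, 588 in native Nr5a2 and 587 in Nr5a2BiD. In an intron of Pvt1, a long non-coding RNA gene next to Myc, the member at chr15:62065392-62067765 had an octamer, scores of 381, 488, 799 and 333 in the same order and summits 637 bp apart. Native Nr5a2 stood highest there and Nr5a2BiD lowest. Members with 1 form of each factor had weaker leaders. The leading native-only member, at chr5:100544114-100545222 in an intron of Cops4, a subunit of the COP9 signalosome, scored 180 in native Oct4 and 243 in native Nr5a2. The others with native forms only lay nearest to Gm25526 and Gab1. Leaders with Oct4BiD and native Nr5a2 lay nearest to Uaca, Slc22a15 and Ttll10, those with BiD forms only nearest to Gm26107, Gm25665 and Gm12133, and those with native Oct4 and Nr5a2BiD nearest to 4930405L22Rik and Scn10a, with 1 more on an unplaced contig. The leading BiD-only member, chr3:137066809-137068123, was in a promoter, had an NR5A motif and scored 529 in Oct4BiD and 204 in Nr5a2BiD.

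Genes were then examined by whether a member lay within 100 kb of a start site, which was so for 47.5% of 21938 protein-coding genes. Ablim1, an actin-binding LIM protein gene, had the most, with 8 members among its 111 union regions. Next, with 7 each, were Fam71a, Slc41a3, Aldh1l1, Casz1, Tspan9, Jazf1, Slit3, Nav2 and Kalrn. Slc41a3 and Aldh1l1 are neighbours on chromosome 6 and shared members. Fam71a lies beside Atf3 and Batf3 on chromosome 1. Counts over genes are therefore not independent. At Casz1, which encodes a zinc-finger factor, 7 of 63 regions were members, and Oct4BiD had a peak in all 7, native Nr5a2 in 6, native Oct4 in 5 and Nr5a2BiD in 2.

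Of 30 naive pluripotency regulators, 13 had a member within 100 kb, or 43.3% (25.5 to 62.6), close to the background of 47.5%. The count was 7 without Oct4BiD, 8 without native Nr5a2, 8 with 50000 peaks a list and 5 with summit windows. Nodal, a TGF-beta family ligand, had 3, and Klf2, Utf1 and Tdh had 2 each. Esrrb, Klf4, Prdm14, Dppa3, Sall4, Tdgf1, Nanog, Nr5a2 and Zfp296 had 1 each, and Dppa3 and Nanog shared theirs. The member nearest to Esrrb, an orphan receptor of naive cells, lay 31.5 kb from a start site at chr12:86329288-86330309. It had an octamer, a summit of 23 tags in Oct4BiD and one of 14 tags in native Nr5a2, and no peak of the other forms. One member of Klf2, at chr8:72355895-72357168, had an octamer with 15 tags in Oct4BiD, and had 34 tags in native Nr5a2 and 20 in Nr5a2BiD. The member of Tdh (threonine dehydrogenase) at chr14:63460433-63461522 had an octamer and 53 tags in Oct4BiD beside 13 tags in native Nr5a2. Near Utf1, the member at chr7:139929154-139932233 was found by all 4 libraries, with 39 and 54 tags in native Oct4 and Oct4BiD and 15 and 14 tags in native Nr5a2 and Nr5a2BiD. In tags, which are not scaled to depth, the Oct4 side was the higher at these members of Tdh and Utf1 and the Nr5a2 side at that of Klf2. The other Tdh member had 15, 14 and 19 tags in native Oct4, Oct4BiD and native Nr5a2. The other Utf1 member had 20, 30 and 20 tags in Oct4BiD, native Nr5a2 and Nr5a2BiD. Native Nr5a2 was thus the highest at both. The member near both Dppa3 and Nanog, at chr6:122686287-122687392, had native Oct4 (12 tags), native Nr5a2 (27 tags) and Nr5a2BiD (12 tags). Only 1 of the 18 entries, at Prdm14, lay within 2 kb of a start site of its listed gene, at 1.4 kb.

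**Figure D5:**
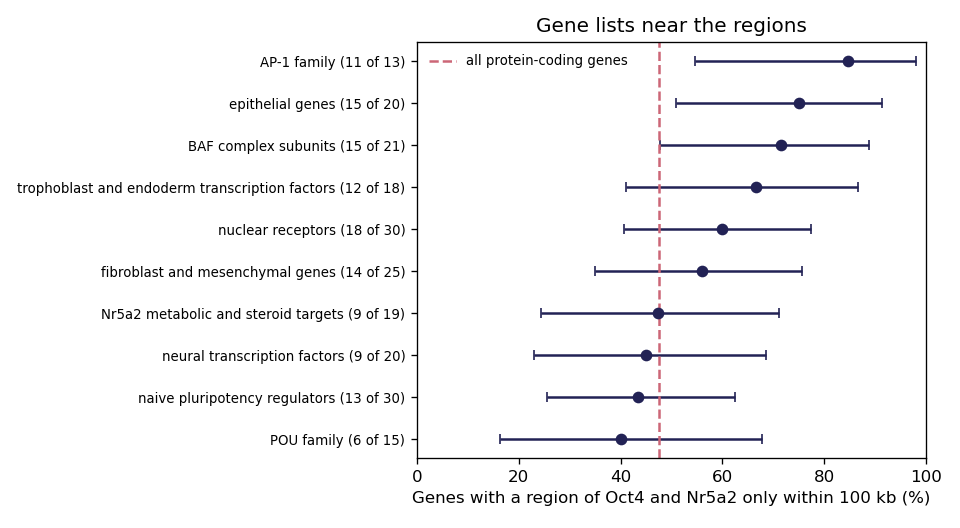
Share of genes (%) of each of 10 lists with a member within 100 kb of a start site, with exact 95% intervals over genes, and the share of all protein-coding genes as a dashed line at 47.5%. Naive pluripotency regulators sit at 43.3% and the AP-1 family at 84.6%.

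Other lists spread around the same background. The AP-1 family had a member near 11 of 13 genes, or 84.6% (54.6 to 98.1). Members were 4.15% of the union regions around these genes, against 1.98% to 2.93% in the other lists and 1.94% of all union regions. Of the 25 summed AP-1 members, 6 lay near Atf3 and 5 near its neighbour Batf3, with some near both. The share without this locus was not computed. The shares of lists are summed over genes, so a region near more than 1 listed gene counts for each. Epithelial genes had 15 of 20 (75%, 50.9 to 91.3), BAF subunits 15 of 21 (71.4%, 47.8 to 88.7), trophoblast and endoderm factors 12 of 18 (66.7%) and nuclear receptors 18 of 30 (60%). Fibroblast and mesenchymal genes had 14 of 25 (56%), metabolic and steroid targets of Nr5a2 9 of 19 (47.4%), neural factors 9 of 20 (45.0%) and the POU family 6 of 15 (40.0%). The lists were short, and genes of the AP-1 list had a median of 40 union regions within 100 kb against 34 for all protein-coding genes. Medians of the other lists ran from 19.5 (neural) to 42 (fibroblast and mesenchymal). They were 41 for BAF subunits, 37.5 for epithelial genes, 32.5 for trophoblast and endoderm factors and 31 for naive pluripotency regulators. The part of these differences in the counts was not tested.

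The AP-1 share of 4.15% of union regions rested partly on 1 locus. Atf3, a stress-induced AP-1 partner, had 6 members and Batf3 had 5, and 4 of these lay near both. The member at chr1:191165086-191166929, 17.2 kb from a start site of Atf3 and in the promoter window of Fam71a, had 25 tags in native Oct4, 73 in Oct4BiD, 36 in native Nr5a2 and 19 in Nr5a2BiD. The one at chr1:191246169-191248614 had an NR5A motif with 24, 31, 26 and 22 tags in the same order. Oct4BiD was the highest library at both. Fos had 1 member, 27.8 kb away, with an NR5A motif and summits of 40, 78 and 27 tags in native Oct4, Oct4BiD and native Nr5a2. Fosl1 had 1 in its promoter, 0.49 kb from the start site, where the score was 55.4 in Oct4BiD, 280 in native Nr5a2 and 51.5 in Nr5a2BiD. Near Bach1, a repressor that binds AP-1-like sites, the member at chr16:87645364-87647303 was found by all 4 libraries, with scores of 322, 624, 437 and 303.

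Among epithelial genes, Cldn7, a tight-junction claudin, had 3 members and Krt8 and Krt18, which encode partner keratins, shared 2. Cdh1, encoding E-cadherin, had 1 member 55.6 kb away with 26 tags in Oct4BiD, 55 in native Nr5a2 and 33 in Nr5a2BiD. The Epcam member, 37.3 kb away, had an octamer but low scores of 54.6 in Oct4BiD and 59.9 in native Nr5a2, both near the threshold. Of the Nr5a2 targets, Cyp7a1, the rate-limiting enzyme of bile acid synthesis, had 1 member 53.97 kb away with an octamer, found by all 4 libraries at 14, 26, 24 and 30 tags. In the BAF list, Smarca4 had 1 member 69.0 kb away, found by all 4 libraries, and Smarce1 had 3, all with Oct4BiD and both Nr5a2 forms.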

How the data were processed

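Peak lists of 8 Flag CUT&Tag libraries of MEFs on day 3 were used. Per the study's methods and the submitters' processing notes, reads were trimmed (Trim Galore 0.6.4) and aligned to mm10 (Bowtie2 2.4.5), and repetitive, mitochondrial and low-quality alignments were dropped (SAMtools 1.16.1). The authors called peaks with MACS 1.4.2, which removed duplicate tags, with no control library named. The methods speak of merged replicates, whereas the reporting summary says that the experiment was done once without biological replicates, and this was not settled. The deposited score of a peak is 10 times the negative log10 of its p-value. The deposited signal at a summit counts whole tags and carries no depth scaling. Library depth is not in the lists. Read totals are in the study's reporting summary and were not used here, and by them the deeper library of the Oct4 pair and of the Nr5a2 pair had the shorter list. The mapping filters can remove peaks in repeats.

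Here peaks sharing at least 1 bp were merged with Python 3.11.15, NumPy 2.4.6 and pandas 2.3.3, after the merging and motif search were checked on made-up data. Intervals came from SciPy 1.17.1 and figures from matplotlib 3.10.9. Of 661009 peaks, 110 lay off the placed chromosomes and were not searched for motifs. Genes and start sites were those of GENCODE M21. Coordinates are 1-based. Percentiles rank peaks by score within a list. Members, lists and motifs were chosen with earlier results of these data known. Named genes were the listed genes with a member, with the most members leading, the nearest genes of the 10 leading members with all 4 libraries and of the 3 leading members of each combination of single forms, and the 10 protein-coding genes with most members. Genes described with values beyond these counts were picked from the lists after their values were seen. Alternatives were higher score limits, equal list lengths, summit windows, a 1 kb margin, other motif and gene windows, and leaving out each library.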

Additional observations from a re-analysis of the deposited data

Results flagged for a closer look

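The balance of BiD-only and native-only members went opposite ways for the 2 factors. The log2 ratio was 2.27 for Oct4 and -1.57 for Nr5a2. All regions of each factor had the same directions, with 1.88 for Oct4 and -2.01 for Nr5a2. Each value rests on 1 library of each form, and the difference between the factors was not tested. Oct4BiD had the longer list of its pair and Nr5a2BiD the shorter one, so list length and form cannot be told apart in these values. With 50000 peaks from each list the ratios were 0.33 and 0.31, and with windows around summits, which leave the list lengths unequal, they were 1.54 and 0.11.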

How the results depend on the processing

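No paired analysis was possible because each factor and form has 1 library. Of 144 alternative values, 74 stayed within the interval of the reported value (or within 1.5 times, for counts), and all 11 did so when members with a Nanog or Sox2 peak within 1 kb were left out. In the order of scores of at least 100, 50000 peaks a list and summit windows of 50 bp, members numbered 3293, 3208 and 2775, of which 507, 656 and 319 had all 4 libraries. The Oct4 log2 ratio was 2.88, 0.33 and 1.54, and that of Nr5a2 -1.77, 0.31 and 0.11. The Nr5a2 sign turned with 50000 peaks a list, and with summit windows the interval (-0.034 to 0.262) held both signs. The NR5A share was 11.5%, 10.9% and 6.88%, the AP-1 share 10.1%, 11.0% and 7.32%, the promoter share 24.6%, 21.1% and 33.7% and the summit distance 368, 327 and 34 bp. The last follows from merging windows of that size. The octamer share was 10.5%, 10.2% and 7.57%, moving only with summit windows, where both motifs were at 0.613%. Backgrounds in the same order were 10.3%, 9.12% and 8.41% for the octamer and 11.3%, 10.8% and 10.8% for NR5A. For promoters they were 15.9%, 15.8% and 16.9%. Naive pluripotency genes with a member numbered 8 and 5 in the last pair, and 3 and 7 with windows of 20 and 50 kb. The causes of the other shifts were not tested.

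With motif windows of 25 and 100 bp, the octamer share was 5.05% and 14.3%, NR5A 6.70% and 17.4%, both 0.354% and 2.58%, and AP-1 5.14% and 13.5%. An octamer with any base at position 5 gave 14.3% (both motifs 1.79%), and NR5A without its leading 2 bases 29.98% (both 2.96%). Promoter limits of 500 bp and 5 kb gave 7.78% and 32.4%.

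Leaving out each library in turn gave 2560 (without Oct4BiD) to 7206 members (without Sox2BiD), with 3839 without native Nr5a2, and 0 to 1374 with all 4 libraries, 0 by construction without any of those 4. The Oct4 ratio ranged from 2.17 to 2.42 and the Nr5a2 ratio from -1.65 to -1.22. The octamer share ranged from 5.23% (without Oct4BiD) to 11.1%, NR5A from 8.75% (without native Nr5a2) to 12.9%, both motifs from 0.742% (without Oct4BiD) to 1.35%, AP-1 from 7.56% to 9.51%, promoters from 13.8% to 20.4%, the summit distance from 259 to 343 bp and naive pluripotency genes from 7 (without Oct4BiD) to 15.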
